A study of Mus musculus with 9 samples.

Results

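Cycling stromal cells of the injured knee were defined here by their own transcripts. A cell counted as cycling where at least 2 of *Mki67*, *Ccna2*, *Ccnb1*, *Ccnb2* and *Cdk1* were detected and where *Ptprc*, *Tyrobp* and *Pecam1* (marks of blood-derived and endothelial cells) had no unique molecular identifier (UMI, the tag that lets each captured transcript be counted once). The rule selected 319 of the 3349 stromal cells of the injured knees, among 4788 cells of the whole series that passed the quality filter (at least 500 genes and 1000 UMIs, at most 10% mitochondrial UMIs). A further 2660 stromal cells had none of the 5 genes and served as the non-cycling cells of the same libraries, and 370 cells had 1 of the 5 and were kept out of both groups.

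The cells came from the knees of mice aged 11 to 12 weeks that carried *Gdf5-Cre*, a Cre-activated tdTomato reporter (Tom) and *Pdgfrα-H2BGFP*. All groups shared these 3 alleles. Cre was driven by *Gdf5*, a gene of the embryonic joint interzone, so Tom marked the descendants of interzone cells, while nuclear green fluorescent protein (GFP) marked cells in which the *Pdgfrα* promoter was active, a feature of fibroblasts and their progenitors. Sorted Tom+ cells and Tom-GFP+ cells were run as separate 10x 5′ libraries. Injured knees, taken 6 days after an injury to the joint surface, gave 4 Tom+ and 2 Tom-GFP+ libraries, and uninjured knees (steady state) gave 2 Tom+ and 1 Tom-GFP+ library. The injured Tom+ libraries held 15033902, 11063217, 7828550 and 7956682 UMIs in replicates 1 to 4, and the Tom-GFP+ libraries held 7397694 and 4262658. The sort selected Tom and GFP, so both reporters describe the gate as well as the cells.

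A dividing cell copies its DNA in S phase and separates the copies in mitosis. E2F transcription factors switch on the genes of the G1/S step (MCM helicase subunits, nucleotide synthesis), and the DREAM and MuvB complexes govern a later wave, the G2/M genes, through CHR elements near their start sites, where CCAAT boxes, bound by NF-Y, are also common. In the synovium, lining fibroblasts (fibroblast-like synoviocytes, FLS) face the joint space, make lubricin (*Prg4*) and lack *Thy1*, whereas sublining fibroblasts express *Thy1*. Lining hyperplasia is a known response of the joint to damage.

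The 5 genes that chose the cells belong mostly to the later wave. *Cdk1* encodes the kinase that starts mitosis, *Ccna2*, *Ccnb1* and *Ccnb2* its cyclin partners, and *Mki67* the Ki-67 protein that coats mitotic chromosomes. The sequences below are the 250 bases before the start of 5 genes, shown as examples of both waves. *Cdk1* and *Mki67* are rule genes, *Cdc20* (activator of the anaphase complex) is a G2/M gene outside the rule, and *Mcm5* and *Mcm6* (helicase subunits) are G1/S genes picked because they hold 2 and 3 matches. Of the other G1/S promoters looked at, *Cdc6* held 1 and *Cdt1* 0. Capitals mark TTTGAA (the CHR core) and CCAAT on either strand in the first 3, and TTTCCCGC, TTTGGCGC or TTTCGCGC (E2F-type letters) on either strand in the last pair, where neighbouring matches can overlap. Each set is marked only in its own group of sequences. Left unmarked, *Cdk1* also holds TTTCGCGC, and *Mcm5* and *Mcm6* also hold CCAAT on either strand. Sequences are from RefSeq on GRCm38.p6, each on its gene's strand: *Cdk1* chr10:69352913-69353162 (minus), *Mki67* chr7:135716380-135716629 (minus), *Cdc20* chr4:118437344-118437593 (minus), *Mcm5* chr8:75109259-75109508 (plus) and *Mcm6* chr1:128359706-128359955 (minus).
*Cdk1*: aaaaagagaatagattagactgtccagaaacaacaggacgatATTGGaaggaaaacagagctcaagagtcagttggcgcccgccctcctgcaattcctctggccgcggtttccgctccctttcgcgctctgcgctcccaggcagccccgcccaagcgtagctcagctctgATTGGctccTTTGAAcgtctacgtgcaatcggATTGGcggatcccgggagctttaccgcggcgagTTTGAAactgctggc
*Mki67*: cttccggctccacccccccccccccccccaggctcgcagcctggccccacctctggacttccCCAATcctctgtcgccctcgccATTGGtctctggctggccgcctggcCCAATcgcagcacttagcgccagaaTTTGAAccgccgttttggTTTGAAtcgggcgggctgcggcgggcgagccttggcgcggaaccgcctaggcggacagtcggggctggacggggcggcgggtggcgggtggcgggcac
*Cdc20*: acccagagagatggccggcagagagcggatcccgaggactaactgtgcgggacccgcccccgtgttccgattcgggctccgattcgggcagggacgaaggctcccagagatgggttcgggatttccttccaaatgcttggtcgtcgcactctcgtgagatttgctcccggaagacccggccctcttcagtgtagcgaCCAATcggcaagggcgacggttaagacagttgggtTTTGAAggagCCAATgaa
*Mcm5*: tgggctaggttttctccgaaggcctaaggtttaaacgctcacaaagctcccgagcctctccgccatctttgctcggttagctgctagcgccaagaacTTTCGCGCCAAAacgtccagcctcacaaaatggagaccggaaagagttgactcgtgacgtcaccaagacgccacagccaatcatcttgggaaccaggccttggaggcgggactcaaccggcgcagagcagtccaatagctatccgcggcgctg
*Mcm6*: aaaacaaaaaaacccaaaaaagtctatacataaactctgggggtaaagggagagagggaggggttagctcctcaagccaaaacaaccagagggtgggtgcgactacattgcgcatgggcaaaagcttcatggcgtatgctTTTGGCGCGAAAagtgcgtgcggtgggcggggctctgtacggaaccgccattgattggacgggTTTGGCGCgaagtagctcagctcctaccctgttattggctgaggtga

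In windows from 250 bases before to 50 after the start, TTTGAA stood in 17.9% of all 32851 promoters of the RefSeq table and in 25 of the 33 promoters of the G2/M list, whose 35 genes include 31 with an entry. It stood in 3 of the 29 promoters of the G1/S list (26 of 30 genes with an entry). CCAAT was present in 37.4% of all promoters, in 25 of 33 G2/M and in 18 of 29 G1/S promoters. The E2F-type letters were present in 1.84% of all promoters, in 11 of 29 G1/S promoters and in 0 of 33 G2/M promoters. They were also present in 1 of the 4 rule gene promoters with an entry. In the 250 bases before the start alone, the window of the sequences above, TTTGAA stood in 5252 of the 32851 promoters, in 10 of 33 G2/M and in 3 of 29 G1/S promoters. CCAAT stood there in 33.8% of all, 25 of 33 and 18 of 29, and the E2F-type letters in 1.53% of all and in 8 of 29 G1/S promoters. A match is a description of letters in these windows and not of a bound site. Of the lining fibroblast list described below, 1 of 9 promoters held TTTGAA and 3 of 9 held CCAAT.

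The values of the rule genes describe the choice and are no finding. Among the 319 cells, 97 had 2 of the 5 genes, 62 had 3, 56 had 4 and 104 had all 5. *Ccnb2* was detected in 71.4% to 100% of the members of a library, at 230.5, 328, 350 and 348 CPM (UMIs of the gene over all UMIs of the same cells, on the usual CPM scale) in the Tom+ members and 270 and 131 in the Tom-GFP+ members. In Tom+ replicate 4 *Mki67* was detected more widely than *Ccnb2* (78.6% against 71.4%). *Mki67* was at 97.9, 150, 109 and 91.7 CPM in the Tom+ members and at 66.0 and 101 in the Tom-GFP+ members. *Ccnb1* was at 0 in the 5 members of Tom-GFP+ replicate 2 and between 55.0 and 245 CPM in the other 5 libraries. That library gave few members, and their rule genes were lower than elsewhere except for *Mki67*.

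Genes of the cycle outside the rule were higher in cells with rule genes, here in UMIs pooled over cells and libraries. The summed level of the 35 G2/M genes was 156 CPM in cells with none of the 5 genes, 314 with 1, 835 with 2, 2106 with 3, 4101 with 4 and 8153 with all 5. The 30 G1/S genes went from 229 and 308 CPM with 0 and 1 rule genes to 714 with 2 and 1569 with 3, and then stood at 1553 and 1403 with 4 and 5. The G2/M sum was thus higher at each step, and the G1/S sum was not. Counted per cell, the median G1/S UMIs were 11 with 3 genes, 13 with 4 and 31.5 with 5, at median depths of 21266, 21032 and 29619 UMIs, so pooled and per-cell values differ in their order. Among the members, *Tk1* (thymidine kinase, a G1/S gene) was at a median of 132 CPM over the 6 libraries, and of the G2/M genes *Cenpa* (the centromere histone) was at 569 and *Ube2c* (a ubiquitin enzyme of mitotic exit) at 500.4 CPM.

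**Figure D1:**
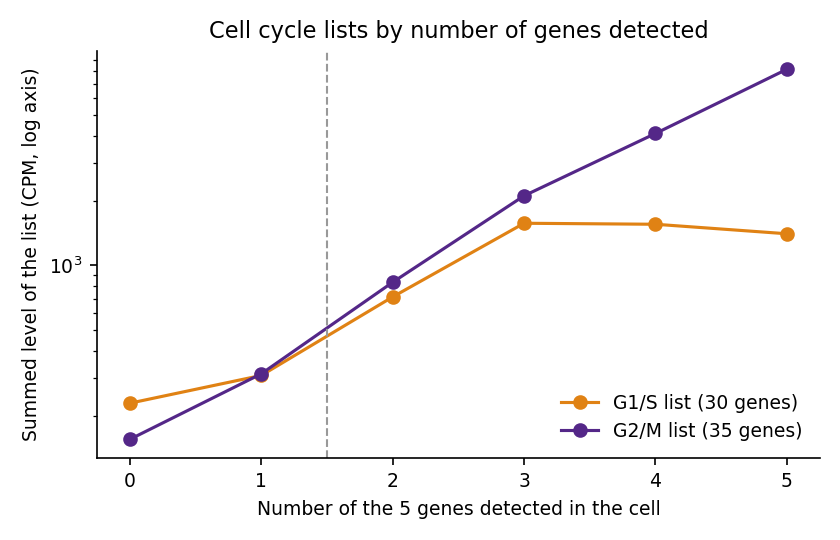
Summed level of the G1/S list (30 genes, orange) and the G2/M list (35 genes, purple) in CPM on a log axis, against the number of the 5 rule genes detected in the stromal cells of the injured knees, all libraries pooled; the dashed line marks the rule. The G2/M list goes from 156 to 8153 CPM and the G1/S list stays between 1403 and 1569 CPM from 3 genes on.

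The rule placed its limit between 1 and 2 genes. Cells just outside, with 1 gene, mostly held *Cdk1* (52.4% of them) or *Ccnb2* (36.8%), and *Mki67* in 2.97%. Cells just inside, with 2 genes, held *Ccnb2* in 69.1%, *Cdk1* in 59.8% and *Mki67* in 25.8%. Cells with more of the genes were also deeper, from a median of 12940.5 UMIs with none to 18575 with 1, 20037 with 2 and 29619 with all 5. Within every injured library the members were the deeper cells, with medians of 25026, 18777, 21054 and 14926.5 UMIs in Tom+ replicates 1 to 4 against 16780, 11979.5, 14337 and 11885 in the non-cycling cells. In the Tom-GFP+ libraries the medians were 28057 and 16595 against 9348 and 14178. Their median share of mitochondrial UMIs was lower in all 6 libraries, from 1.66% to 2.29% in members and from 2.47% to 3.58% in non-cycling cells. Because depth moves with membership, the comparisons of cycling with non-cycling cells below were repeated with non-cycling cells drawn to match the members' UMI totals within each library. List counts from that repeat stand beside many of the main ones over all cells, and within the classes only where stated. A list count printed without it is not shown against matched cells. Genes per cell and the mitochondrial share were not matched, and over all cells neither was the kind of fibroblast.

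The label of these cells as stromal held against their genes. After each cell was thinned to 5000 UMIs, *Col1a1* (type I collagen) had a UMI in 98.7% of cycling and 96.6% of non-cycling cells and in 28.3% of the 53 *Ptprc*+*Tyrobp*+ cells of the same libraries. *Pdgfra* had a UMI in 42.0%, 51.3% and 3.77% of these cells. The medians before thinning were 23483.5, 13436 and 10295 UMIs. Of 15 immune genes, 13 had a UMI in the members, with 118 UMIs in all and a summed level of 7.92 to 55.4 CPM per library against 9.84 to 50.7 in non-cycling cells, and *Lyz2* was the most abundant. Of 8 endothelial genes, 6 had a UMI, with 106 UMIs in all and 4.25 to 19.3 CPM against 1.18 to 12.7, led by *Esam*. *Ptprc*, *Tyrobp* and *Pecam1* were at 0 by the rule. Red blood cell genes, led by *Hbb-bs*, summed to 2694 CPM in the 5 members of Tom-GFP+ replicate 2 and to at most 3.16 CPM in the members of the other libraries, and their part in that library's values was not tested. Doublet scores placed 20 of the 319 members in the highest 5% of their library. In Tom+ replicates 1 to 4 these were 6.13%, 10.2%, 7.41% and 7.14% of members against 3.21%, 3.69%, 3.01% and 3.84% of non-cycling cells, and in the Tom-GFP+ replicates 1.96% and 0% against 3.601% and 3.83%. Without the cells of highest score, 12 of 13 lining genes were still lower in the comparison described below, where 14% of 10734 genes were. No member barcode was shared between libraries.

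In the injured knees the cycling cells were unevenly spread over libraries. They made up 21.7% of stromal cells in Tom+ replicate 1 (163 of 750, exact 95% binomial interval 18.8 to 24.9), 7.26% in replicate 2 (59 of 813, 5.57 to 9.26), 5.86% in replicate 3 (27 of 461, 3.89 to 8.41) and 2.42% in replicate 4 (14 of 578, 1.33 to 4.03). In the Tom-GFP+ libraries they made up 10.5% in replicate 1 (51 of 485, 7.93 to 13.6) and 1.91% in replicate 2 (5 of 262, 0.622 to 4.4). Tom+ replicate 1 alone gave 51.1% of all members, and both lineages held a library with many and a library with few. These intervals cover counting error only.

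With each cell thinned to 5000 UMIs and shallower cells left out (206 of 3349), replicates 1 to 4 of Tom+ had shares of 12.6%, 5.26%, 3.61% and 1.3%, and both Tom-GFP+ replicates 6.93% and 1.22%. The mean was 5.68% ± 4.86 (SD, n = 4) in Tom+ and 4.08% ± 4.04 (SD, n = 2) in Tom-GFP+ libraries. The difference of 1.61 percentage points was smaller than the spread between libraries (exact permutation test over libraries, two-sided, p = 0.733, where 4 against 2 libraries cannot go below 0.0667). It turned to -0.68 points without Tom+ replicate 1 and to -1.25 points without Tom-GFP+ replicate 2. So no lineage difference in the share of cycling cells was detectable. The study describes the Tom-GFP+ mice as matched to the Tom+ mice, and the labels do not say which libraries share a mouse. Every test between lineages took the libraries as independent.

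The same rule found 1 cycling cell among 1266 stromal cells of the uninjured knees, in Tom+ replicate 2 (0.186% of 537 cells). It held all 5 genes and 35452 UMIs, and the other steady-state libraries had 0 of 326 (Tom+ replicate 1) and 0 of 403 cells (Tom-GFP+). Among cells with at least 5000 UMIs, a count of 0 allows a share of up to 1.09% and 0.906% there by the one-sided limit of 3 counts of the total, and the upper ends of the two-sided exact 95% intervals, which are wider, are 1.34% and 1.11%. These shares are given without a test because the cells were chosen in the injured libraries with the values known. The steady-state libraries and Tom+ injured replicate 1 were deposited in an older file format than the other 5 libraries, and that injured library had the highest share.

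**Figure D2:**
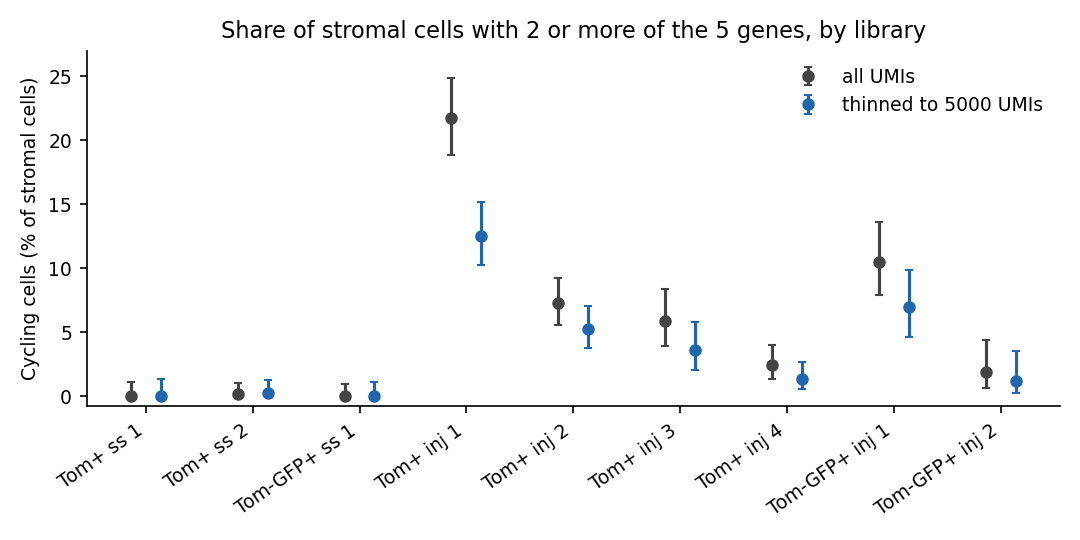
Share of stromal cells (%) that met the rule, per library, before and after thinning to 5000 UMIs, in injured (inj) and steady-state (ss) libraries of both lineages; bars on the points are exact 95% binomial intervals. Injured libraries range from 1.91% to 21.7% before thinning, and the 3 steady-state libraries stay between 0 and 0.186% before and between 0 and 0.227% after thinning.

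To ask which fibroblast pattern the cycling cells carried, each cell with at least 5000 UMIs was classed after thinning as *Prg4*+*Thy1*- (at least 5 *Prg4* UMIs and no *Thy1*, the lining pattern) or *Thy1*+ (at least 1 *Thy1* and under 5 *Prg4* UMIs, the sublining pattern). Of 312 cycling cells, 135 (43.3%) were *Prg4*+*Thy1*-, 70 (22.4%) were *Thy1*+, 34 (10.9%) met both thresholds and 73 (23.4%) met neither. Of 2467 non-cycling cells, 819 (33.2%) were *Prg4*+*Thy1*- and 764 (31.0%) *Thy1*+, and 5.80% met both thresholds. Cells of both patterns were therefore cycling. Among the 53 *Ptprc*+*Tyrobp*+ cells, which should lack *Prg4*, 0 were *Prg4*+*Thy1*- and 2 were *Thy1*+.

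Per library, *Prg4*+*Thy1*- cells made up 48.1%, 43.1%, 50.0% and 42.9% of cycling cells in the Tom+ replicates, against 33.5%, 44.7%, 44.0% and 29.1% of non-cycling cells. In the Tom-GFP+ libraries they made up 25.5% and 40.0% against 12.1% and 17.4%. The share was higher among cycling cells in 5 of 6 libraries, by 11.5 ± 8.29 percentage points (mean ± SD of the paired differences, n = 6). This difference did not pass the test (exact sign-flip permutation test over libraries, two-sided, p = 0.0625). At 2500 UMIs a cell, without thinning and with *Prg4* thresholds of 2 and 10 UMIs it was 9.10 to 12.4 points and reached p = 0.03125, the smallest that 6 pairs allow in this exact test. Under the stricter cell filter and without the cells of highest doublet score it was 11.4 and 12.1 points and p stayed at 0.0625 in the exact test. For cells with at least 3 of the 5 genes it was 21.9 points, higher in 4 of 6 libraries (exact test, p = 0.125).

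*Thy1*+ cells made up 18.4%, 17.2%, 11.5% and 28.6% of cycling cells in the Tom+ replicates, against 28.0%, 25.3%, 26.3% and 32.2% of non-cycling cells. In the Tom-GFP+ libraries the shares were 43.1% and 40.0% against 45.2% and 40.6%. Cells of the *Thy1*+ class were thus a smaller part of cycling than of non-cycling cells in 6 of 6 libraries, by 6.48 ± 5.34 points (exact sign-flip permutation test, two-sided, p = 0.03125). The call was lost at 2500 UMIs a cell (-3.70 points, p = 0.406 in the same exact test), with a *Prg4* threshold of 2 UMIs (-2.10 points, p = 0.5625), without thinning (-8.27 points, p = 0.125) and under the stricter cell filter (-5.60 points, p = 0.0625). In the Tom-GFP+ libraries the paired differences were the smallest of the 6.

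**Figure D3:**
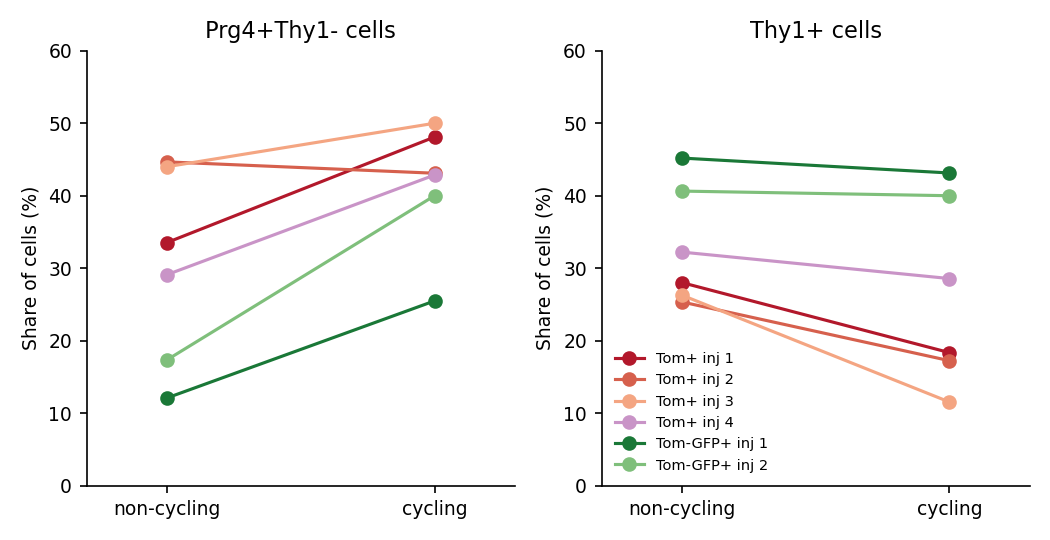
Share (%) of non-cycling and cycling cells that were *Prg4*+*Thy1*- (left) or *Thy1*+ (right) after thinning to 5000 UMIs; each line joins the values of 1 injured library. The *Prg4*+*Thy1*- share is higher in cycling cells in 5 of 6 libraries and the *Thy1*+ share is lower in 6 of 6. The *Thy1*+ class leaves out cells with 5 or more *Prg4* UMIs. The share of all cells with a *Thy1* UMI is higher in cycling cells of both Tom-GFP+ libraries.

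Against the non-cycling cells of the same library, the cycling cells had less of nearly every lining gene. UMIs were summed over the cells of each kind in each library and compared with edgeR's quasi-likelihood test with the library as a block and Benjamini-Hochberg adjustment, the test behind every adjusted p below. The fit covered 10832 genes and called 3008 (27.8%), with 1122 of them up (10.4%) and 1886 down (17.4%) in cycling cells and a median log2 fold change of -0.12. Without Tom-GFP+ replicate 2, which gave 5 members, the split was 1517 higher (13.5% of 11255) and 1639 lower (14.6%). All 28 tested genes of the G1/S list and all 24 of the G2/M list were higher, with median log2 fold changes of 2.25 and 6.65. They share the rule's contrast and are given as a description.

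Of 13 lining fibroblast genes, 12 fell in cycling cells and none rose, with a median log2 fold change of -1.06. The list joins earlier markers of lining fibroblasts with genes that analyses of these same libraries brought up, so it is not independent evidence of a direction. *Clic5*, a chloride intracellular channel protein that marks lining fibroblasts (chromosome 17, 44188584 to 44280172, plus strand, GRCm38), was at 7.41 to 79.1 CPM in cycling cells (median 38.7 over 6 libraries) and at 42.0 to 286 CPM in non-cycling cells (median 181). Its ranges over libraries overlapped, but it was lower in cycling cells in 6 of 6 libraries (log2 fold change -2.26 ± 0.17 SE, adjusted p = 2.52e-07). *Htra4*, a serine protease (chromosome 8, 25024929 to 25038962, minus strand), went from a median of 447 CPM (184 to 790) to 132 CPM (39.8 to 275), a log2 fold change of -1.96 ± 0.18 (adjusted p = 2.55e-06).

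The epidermal growth factor receptor ligand *Hbegf* was at 93.0 to 348 CPM in cycling cells (median 208) and at 270 to 1150 CPM in non-cycling cells (median 575), with a log2 fold change of -1.71 ± 0.13 (adjusted p = 4.32e-07). *Cd55*, a brake on complement (chromosome 1, 130439027 to 130462744, minus strand), fell from a median of 120 to 42.2 CPM (-1.76 ± 0.21, adjusted p = 2.55e-05). Both were lower in every library. *Prg4* itself (chromosome 1, 150449412 to 150466165, minus strand) was the most abundant gene of the list and fell least among those named, from a median of 10344 to 8459 CPM (-0.70 ± 0.09, adjusted p = 6.79e-05), and it was slightly higher in cycling cells of Tom-GFP+ replicate 2. Counted per cell, the order was the other way. After thinning to 5000 UMIs, the median *Prg4* UMIs of a cycling cell were 9, 6.5, 13 and 3.5 in Tom+ replicates 1 to 4 and 1 and 26 in the Tom-GFP+ replicates, against 3, 4, 5, 1, 0 and 1 in non-cycling cells. The share of cells with a *Prg4* UMI was also higher among cycling cells in 6 of 6 libraries (87.3% against 72.2% in Tom+ replicate 1). So the lower summed level of *Prg4* does not describe the median cell. The highest single cell was a non-cycling one in 6 of 6 (531 against 337 UMIs in Tom+ replicate 1). Non-cycling cells were far more numerous (489 against 158 there), so this maximum does not compare the kinds of cell. *Cd44*, the hyaluronan receptor, was the list member that did not pass (log2 fold change 0.01 ± 0.14, adjusted p = 0.977).

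The lining transcription factors *Sox5*, *Foxo1* and *Creb5* moved with the list, at log2 fold changes of -1.06, -0.93 and -1.01. With non-cycling cells matched on UMI totals, again 12 of 13 lining genes fell and the median was -1.35. That fit covered 6957 genes and called 628 of them higher (9.03%) and 597 lower (8.58%). It did not hold the classes fixed. Non-cycling *Prg4*+*Thy1*- cells were deeper than non-cycling *Thy1*+ cells in every injured library (medians of 13986 and 10228 UMIs in Tom+ replicate 2). Matching on depth can thus change the class mix of the control, which was not tested. *Prg4* was at -1.33 in that fit. The *Prg4*+ progenitor list was likewise drawn up with results from these libraries known. All 5 of its genes fell, among them *F13a1*, which encodes a clotting transglutaminase subunit (chromosome 13, 36867178 to 37050244, minus strand; -1.51 ± 0.20, adjusted p = 7.84e-05), and *Fgl2* (-1.72 ± 0.13, adjusted p = 3.26e-07). *Prg4* and *Creb5* stand in both lists.

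Genes of sublining and universal fibroblasts were lower as well, and fewer of them passed against cells matched on UMI totals. Of 8 universal fibroblast genes 7 fell, led by *Pi16* (a peptidase inhibitor; chromosome 17, 29317680 to 29330593, plus strand), at 3.16 to 192 CPM in cycling cells (median 17.0) and 30.8 to 671 in non-cycling cells (median 220), with a log2 fold change of -3.09 ± 0.56 (adjusted p = 0.000923). The high cycling value belonged to Tom-GFP+ replicate 2. Of 14 tested sublining genes 8 fell and none rose, with *Gas6*, a ligand of TAM receptors (-2.34 ± 0.20, adjusted p = 8.76e-07), and the chemokine *Cxcl12* (-1.98 ± 0.16, adjusted p = 6.98e-07) far down. For both of these genes the ranges of cycling and non-cycling cells did not overlap. *Thy1* was at a median of 128 CPM in cycling and 163 CPM in non-cycling cells and did not pass (-0.37 ± 0.21, adjusted p = 0.222).

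With matched UMI totals, 2 of 6 tested universal genes (*Sema3c* and *Cd55*) and 2 of 10 sublining genes (*Cxcl12* and *Gas6*) fell. In that fit 8.58% of 6957 genes were lower and 9.03% higher, and these shares also stand behind the matched counts over all cells below. *Pi16* was then at -1.29 (adjusted p = 0.13) and *Cxcl12* at -0.75 (adjusted p = 0.00807). *Thy1* was at 0.18 (adjusted p = 0.697). As above, this match did not hold the classes fixed, and the part of the class mix in these values was not tested.

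Matrix genes did not move as a block. Of 20 extracellular matrix genes 11 fell and none rose. Fibronectin (*Fn1*) went from a median of 6849 to 4033 CPM (-0.91 ± 0.10, adjusted p = 9.74e-06), decorin (*Dcn*) was at -1.16, elastin (*Eln*) at -2.07 and *Col14a1* at -1.82 ± 0.18 (adjusted p = 5.13e-06). Of the fibrillar collagen genes, *Col3a1* fell from a median of 10370 to 7910 CPM (-0.59 ± 0.09, adjusted p = 0.000323), and *Col1a1* did not pass (-0.32 ± 0.14, adjusted p = 0.0938). With matched UMI totals 5 of 20 fell, *Fn1*, *Dcn*, *Eln*, *Col14a1* and *Bgn*.

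Of 8 genes of injury-induced fibroblasts, *Timp1* rose and *Mdk* fell. *Timp1*, the inhibitor of matrix metalloproteinases (chromosome X, 20870166 to 20874735, plus strand), was at 2383 to 5671 CPM in cycling cells (median 3293) and 1073 to 3071 in non-cycling cells (median 1558), higher in 6 of 6 libraries (1.00 ± 0.12, adjusted p = 1.95e-05). Against matched cells it was at 0.58 (adjusted p = 0.0961). The growth factor midkine (*Mdk*) was at a median of 16.6 against 68.8 CPM (-1.96 ± 0.25, adjusted p = 5.8e-05) and also fell against matched cells. *Lrrc15* (0.09), *Adam12* (0.31), *Tnc* (0.33), *Cthrc1* (0.34), *Lox* (0.30) and *Postn* (-0.24) did not pass. Without Tom-GFP+ replicate 2, 5 of the 8 rose.

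Regulators of entry into and exit from the cycle changed in both directions, 6 of 20 higher and 8 lower. Against matched cells 4 of 15 tested were higher (*Ccnd1*, *Cdk4*, *Cdkn2c* and *Cdkn2d*) and 2 lower (*Ccnd2* and *Cdkn1c*). *Cdkn1c* encodes p57, an inhibitor of cyclin-dependent kinases and a mark of quiescence (chromosome 7, 143458339 to 143461050, minus strand). It was at 0 to 41.3 CPM in cycling cells (median 10.7) and at 55.0 to 208 CPM in non-cycling cells (median 114), with no overlap (-2.78 ± 0.21, adjusted p = 3.26e-07), and it also fell against matched cells (-2.27, adjusted p = 0.000342). *Ccnd1*, cyclin D1, was at 27.2 to 40.4 CPM (median 35.5) against 7.39 to 15.5 (median 12.6), again without overlap (1.28 ± 0.17, adjusted p = 7.47e-05). *Cdkn2d*, an inhibitor of CDK4 and CDK6, rose as well (1.63 ± 0.14, adjusted p = 1.15e-06), and *Ccnd2* fell (-0.97 ± 0.15, adjusted p = 0.000312). *Cdkn1a*, encoding p21, did not pass (-0.32, adjusted p = 0.244).

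Of 12 ribosome biogenesis genes 11 were higher in cycling cells, with a median log2 fold change of 0.57, such as the box C/D protein gene *Nop56* (48.5 to 64.2 CPM against 19.7 to 37.5, 0.86 ± 0.14, adjusted p = 0.000354) and nucleolin (*Ncl*, 0.48). Of 14 glycolysis genes 7 were higher, none was lower and 7 did not pass. Those higher included *Pgk1* (0.96 ± 0.13, adjusted p = 6.5e-05), *Eno1* (0.90) and *Pkm* (0.82). With matched UMI totals 6 of 11 tested ribosome biogenesis genes and 6 of 14 glycolysis genes were higher.

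Of 10 immediate early genes 9 fell, with a median log2 fold change of -0.79. *Fos* was at a median of 721 CPM in cycling and 1608 CPM in non-cycling cells (-1.21 ± 0.15, adjusted p = 4.36e-05) and *Atf3* at 180 against 470 CPM (-1.35 ± 0.17, adjusted p = 3.58e-05). These genes encode transcription factors and feedback regulators that cells switch on soon after a stimulus. Against matched cells only *Jund* of the 10 fell, the median was -0.32, and *Fos* was at -0.50 (adjusted p = 0.139).

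Of 11 tested growth factor receptor genes 8 fell, among them *Egfr* (-1.02 ± 0.13, adjusted p = 5.09e-05) and *Tgfbr2* (-0.83 ± 0.12, adjusted p = 0.000136), and *Pdgfra* was at -0.43 (adjusted p = 0.0166). Against matched cells *Egfr* and *Fgfr1* still fell. The Tom reporter (*tdTom*) was lower in cycling cells (-0.58 ± 0.17, adjusted p = 0.0209), and *H2BeGFP* did not pass (-0.14 ± 0.17, adjusted p = 0.587). *H2BeGFP* UMIs were present in 84.9% of the thinned *Ptprc*+*Tyrobp*+ cells against 59.0% of cycling cells, so its detection in a cell does not mark a fibroblast here, while *tdTom* was present in 7.55% against 56.7%.

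**Figure D4:**
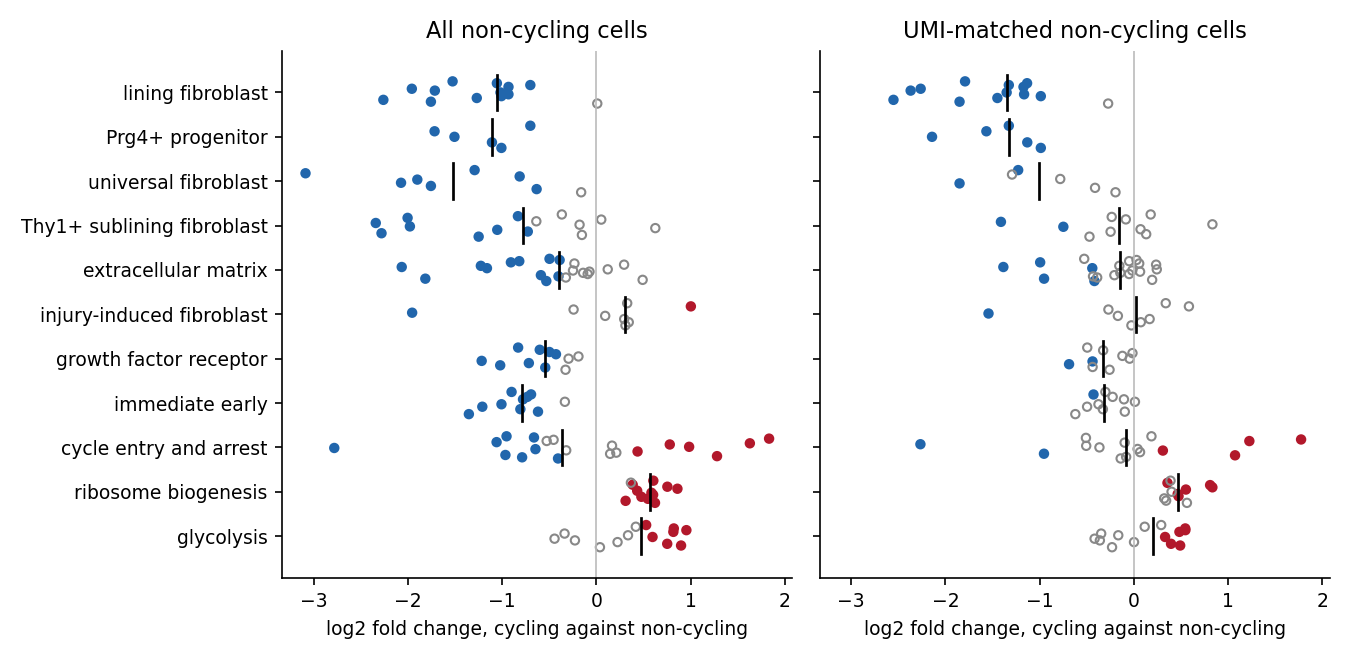
Log2 fold change of each tested gene (points), cycling against all non-cycling cells (left) or against non-cycling cells matched on UMI totals (right), by gene list; filled points passed the test (blue lower, red higher), open points did not, and the black bar is the list's median. On the left, lining and universal fibroblast genes have medians of -1.06 and -1.52, and ribosome biogenesis and glycolysis genes of 0.57 and 0.47.

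Genes of differentiated skeletal and mural cells fell or did not pass in cycling cells. Of tested list members, 2 of 9 chondrocyte, 4 of 7 osteoblast, 4 of 5 tenocyte and 4 of 6 mural genes fell and none rose. Against matched cells 3 of 5 tested osteoblast genes (*Ibsp*, *Bglap* and *Bglap2*) and 1 of 5 tenocyte genes (*Thbs4*) fell, and none of 6 chondrocyte or 3 mural genes passed. One of the chondrocyte falls was *Col2a1* (-3.09 ± 1.09, adjusted p = 0.0472), which was at 5175 CPM in cycling and 892 CPM in non-cycling cells of Tom+ replicate 4 and lower in cycling cells of the other 5 libraries. It was at 1.03 without the library block (adjusted p = 0.653), and it did not pass without Tom+ replicate 1, Tom+ replicate 3 or either Tom-GFP+ replicate. The mural sum was lower in cycling cells in 4 of 6 libraries, but in Tom-GFP+ replicate 1 it was 1441 CPM in cycling and 266 CPM in non-cycling cells, led by *Acta2* (1056 against 173 CPM). Its mean over libraries was 614 CPM in cycling and 538 CPM in non-cycling cells. The chondrocyte list differed between libraries: its summed level was 12119 CPM in the cycling cells of Tom+ replicate 4 and at most 712 CPM in the other 5. There, 3 of the 14 cycling cells each held at least 3 of 5 cartilage genes, and they carried 1126 of the library's 1129 *Col2a1* UMIs in cycling cells. *Sox9*, *Runx2* and *Scx*, factors of the cartilage, bone and tendon lineages, did not pass (-0.23, 0.30 and 0.31). In thinned cells *Scx* had a UMI in 17.3% of cycling and 8.999% of non-cycling cells, *Sox9* in 17.3% and 14.6%, and *Runx2* in 6.09% and 4.54%. Each had a UMI in 1 of the 53 *Ptprc*+*Tyrobp*+ cells (1.89%).

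Outside the cell cycle genes and these lists, the largest falls that held in every library included the apolipoprotein genes *Apoe* and *Clu*. *Clu* was at 4.58 to 40.4 CPM in cycling cells (median 10.7) and at 65.0 to 576 CPM in non-cycling cells (median 247), with no overlap (-4.30 ± 0.26, adjusted p = 2.09e-08). *Chil1*, a chitinase-like glycoprotein, was at a median of 7.94 against 50.2 CPM (-3.72 ± 0.21, adjusted p = 9.81e-09) and *Wif1*, a secreted Wnt antagonist, at -4.19 ± 0.44 (adjusted p = 7.87e-06). Genes with the largest rises included the linker histone gene *H1fx* (medians 59.4 against 9.83 CPM, 2.54 ± 0.15, adjusted p = 2.09e-08), *Selenoh*, a nucleolar selenoprotein gene (436 against 69.7 CPM, 2.48 ± 0.11, adjusted p = 5.99e-10), the RNA helicase gene *Ddx39* (1.53 ± 0.10, adjusted p = 5.74e-08) and *Ass1*, an enzyme of arginine synthesis (2.22 ± 0.22, adjusted p = 5.29e-06). For *H1fx*, *Selenoh* and *Ddx39* the cycling and non-cycling ranges did not overlap.

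Because cycling and non-cycling cells may differ in their shares of the classes, the comparison was repeated within the *Prg4*+*Thy1*- class, in the 4 libraries with at least 10 cells of both kinds (76, 25 and 13 cycling cells in Tom+ replicates 1 to 3 and 13 in Tom-GFP+ replicate 1). The fit covered 8621 genes and called 18.1% of them, 808 up (9.37%) and 754 down (8.75%), with a median log2 fold change of -0.03. Within the class, 11 of 12 tested lining genes fell, with a median of -1.54. *Prg4* and *Thy1* define the class, so their values there are a description.

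*Clic5* was at 28.5, 143, 138 and 26.2 CPM in cycling *Prg4*+*Thy1*- cells and at 276, 455, 534 and 264 CPM in the non-cycling cells of the same 4 libraries. Every cycling value was below every non-cycling one (-2.45 ± 0.22, adjusted p = 9.66e-07). *Htra4* was at 89.5, 353, 474 and 149 CPM against 858, 847, 1484 and 1040 (-2.22 ± 0.24, adjusted p = 7.47e-06). *Hbegf* was at 154, 618, 385 and 254 CPM against 871, 1756, 2165 and 1514 (-2.25 ± 0.15, adjusted p = 4.18e-08). For these 3 genes the cycling and non-cycling values did not overlap.

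The membrane protein genes *Cd55* (-2.01 ± 0.24, adjusted p = 2.01e-05) and *Tspan15* (-1.90 ± 0.24, adjusted p = 3.58e-05) fell by like amounts, as did the hyaluronan synthase gene *Has1* (-1.62 ± 0.13, adjusted p = 2.72e-07) and, among genes of the progenitor list, *F13a1* (-1.56 ± 0.27, adjusted p = 0.000768) and *Fgl2* (-1.71 ± 0.23, adjusted p = 7.64e-05). *Cd44* was again the lining gene that did not pass (-0.25 ± 0.13, adjusted p = 0.196). Against non-cycling *Prg4*+*Thy1*- cells with matched UMI totals, all 12 tested lining genes fell, with a median of -1.48. That fit called 285 of 4916 genes lower (5.8%) and 388 higher (7.89%). With DESeq2 9 of 12 fell, where 4.33% of 8621 genes were lower, and without the library block 6 fell, where 2.89% were lower.

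**Figure D5:**
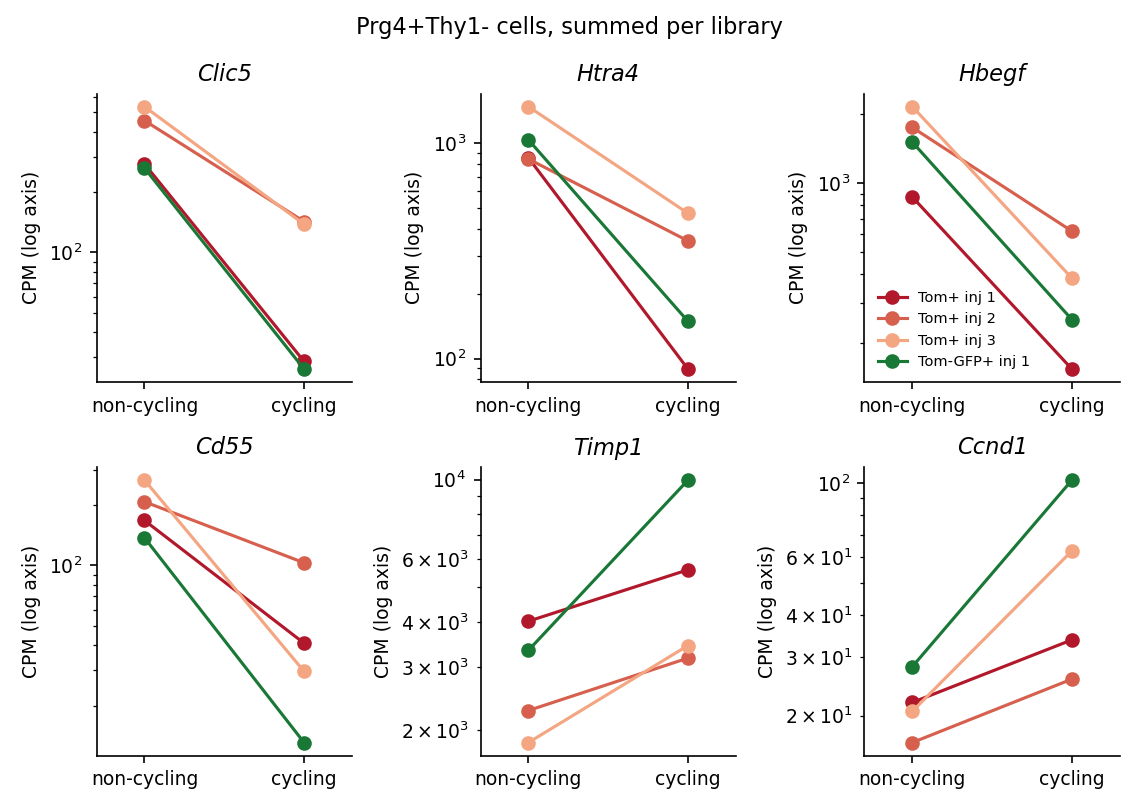
CPM (log axis) of *Clic5*, *Htra4*, *Hbegf*, *Cd55*, *Timp1* and *Ccnd1* in UMIs summed over non-cycling and cycling *Prg4*+*Thy1*- cells; each line joins the values of 1 of the 4 injured libraries with at least 10 cells of both kinds. The first 4 genes are lower and *Timp1* and *Ccnd1* higher in cycling cells in 4 of 4 libraries.

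Over the number of rule genes, mean levels in *Prg4*+*Thy1*- cells were taken in the 4 libraries with at least 5 such cells at every step, with no test. *Clic5* was at a mean of 382 CPM (SD 134) with none of the 5 genes, 244 (SD 245) with 1, 102 (SD 82.0) with 2 or 3 and 72.1 (SD 62.9) with 4 or 5. *Hbegf* went from 1576 to 1179, 509 and 251 CPM over the same steps, and *Htra4* from 1057 to 789.6, 347 and 216. *Prg4* was at 26789.8, 23343, 12539.6 and 14453 CPM, so its lowest mean was at 2 or 3 genes. Cells with 1 of the genes, which entered no test, lay between the non-cycling cells and the members for all 4 genes. *Timp1* went the other way, at 2868, 4036, 4587 and 6032 CPM.

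Within the class, of 10 immediate early genes 9 fell (median -0.83; 4 of 10 against matched cells), 8 of 11 ribosome biogenesis and 7 of 14 glycolysis genes rose, 3 of 20 matrix genes fell and 1 rose, and 4 of 10 tested sublining genes fell and 2 rose. Among injury-induced genes *Timp1* (0.85 ± 0.16, adjusted p = 0.00117), *Lox* (0.70 ± 0.17, adjusted p = 0.00712) and *Cthrc1* (0.41 ± 0.11, adjusted p = 0.0172) rose and 1 fell. *Lox* was higher in 3 of 4 libraries. None of the 5 testable against matched cells passed there. *Ccnd1* was at 33.8, 25.7, 62.5 and 102 CPM against 21.9, 16.6, 20.6 and 28.1 (1.09 ± 0.24, adjusted p = 0.00439). *Cdkn1c* was low in this class, at 0 to 34.0 CPM in cycling and 8.18 to 21.8 CPM in non-cycling cells, and did not pass (-0.83 ± 0.47, adjusted p = 0.26).

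Among the largest changes of single genes in the class, *Klf2*, a transcription factor of quiescence, fell (50.4, 67.3, 55.9 and 26.2 CPM against 189, 234, 303 and 145; -2.06 ± 0.15, adjusted p = 7.12e-08). The protease inhibitor gene *Serpine2* (-2.21 ± 0.20, adjusted p = 7.79e-07) and *Cystm1* (-2.71 ± 0.30, adjusted p = 8.29e-06) fell too. *Ass1* rose (423, 147, 135 and 460 CPM against 158, 44.4, 37.1 and 62.4; 1.88 ± 0.19, adjusted p = 3.63e-06), and so did the growth factor gene *Fgf7* (1.51 ± 0.27, adjusted p = 0.000844). Of these genes outside the cell cycle set, the chemokine gene *Cxcl3* rose most (3.78 ± 0.43, adjusted p = 1.11e-05), from 1.64, 9.96, 25.5 and 12.5 CPM to 3.33, 101, 171 and 1114, with the high value in the Tom-GFP+ library. Against matched cells it was at 1.93 (adjusted p = 0.124).

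Within the *Thy1*+ class the comparison rested on 3 libraries (29 and 10 cycling cells in Tom+ replicates 1 and 2 and 22 in Tom-GFP+ replicate 1). Of 8320 genes, 411 were higher (4.94%) and 344 lower (4.13%) in cycling cells, 9.07% in all. Universal fibroblast genes fell in 5 of 7 tested. *Pi16* was at 3.01, 0 and 22.8 CPM in cycling and 90.0, 347 and 1126 CPM in non-cycling *Thy1*+ cells (-5.66 ± 0.33, adjusted p = 1.95e-06). *Scara5*, a ferritin receptor gene, was at 4.52, 5.77 and 1.42 against 61.6, 79.5 and 160 CPM (-4.95 ± 0.45, adjusted p = 3.48e-05). For *Pi16* and *Scara5* no cycling value reached a non-cycling one.

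The Wnt modulator gene *Sfrp4* fell from 386, 1621 and 2725 CPM to 4.52, 5.77 and 59.8 CPM (-5.99 ± 0.31, adjusted p = 9.15e-07). *Gas6* (-3.06 ± 0.24, adjusted p = 1.42e-05), *Cd55* (-2.04 ± 0.25, adjusted p = 0.000391) and *Cdkn1c* (7.53, 34.6 and 25.6 against 68.5, 117 and 183 CPM; -2.68 ± 0.28, adjusted p = 0.000106) fell in all 3 libraries. *Timp1* rose (2067, 3195 and 3936 against 1791, 888 and 1475 CPM; 1.15 ± 0.26, adjusted p = 0.017), but was at 0.21 against matched cells (adjusted p = 0.74). The neutrophil chemokine genes *Cxcl5* (94.9, 161 and 721 against 15.6, 34.5 and 145 CPM; 2.36 ± 0.19, adjusted p = 1.61e-05) and *Cxcl2* (1.73 ± 0.25, adjusted p = 0.00107) rose. Of 14 glycolysis genes 8 rose, among them *Eno1* (1.07 ± 0.19, adjusted p = 0.00365) and the glucose transporter gene *Slc2a1* (1.22 ± 0.30, adjusted p = 0.0268). None of the 13 testable against matched cells rose, where 2.77% of 5855 genes did, and none of 14 without Tom-GFP+ replicate 1, where 2.2% of 8654 did. Among other lists in this class, 1 of 11 tested ribosome biogenesis genes rose, where 4.94% of all genes did. Lining genes fell in 3 of 8 tested and immediate early genes in 1 of 10, where 4.13% of all genes fell.

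Whether the change with cycling differed between both classes was tested as an interaction in the 3 libraries that hold both. Of 9275 genes 0 passed (0%), while 572 had an unadjusted p under 0.05, and DESeq2 called 20. A lining change confined to *Prg4*+*Thy1*- cells, or a *Cdkn1c* change confined to *Thy1*+ cells, was therefore not shown.

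The cycling cells of both classes were then compared with each other, in the 3 libraries with at least 10 of both. Of 5880 genes, 8 were higher (0.136%) and 10 lower (0.17%) in cycling *Prg4*+*Thy1*- than in cycling *Thy1*+ cells, 0.306% in all. *Htra4* was at 89.5, 353 and 149 against 7.53, 0 and 1.42 CPM (5.09 ± 0.58, adjusted p = 0.0357), *Clic5* at 28.5, 143 and 26.2 against 0, 0 and 1.42 CPM (adjusted p = 0.0427), and *Hbegf* at 154, 618 and 254 against 33.1, 28.8 and 29.9 CPM (3.00 ± 0.36, adjusted p = 0.0427). *F13a1* (167, 731 and 44.5 CPM) and *Col22a1* (74.2, 386 and 20.9 CPM), a collagen gene of tissue junctions, had no UMI in the cycling *Thy1*+ cells of these libraries. Of 11 tested lining genes 4 were higher in cycling *Prg4*+*Thy1*- cells and 7 did not pass. The other genes called higher were *Ass1* (2.19), *Spp1* (osteopontin, 2.07) and *Ugp2* (1.41).

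Higher in cycling *Thy1*+ cells were *Acta2* (smooth muscle actin; 2445, 329 and 1939 against 202, 43.6 and 214 CPM; -3.33 ± 0.18, adjusted p = 0.00458) and *Myl9* (a myosin light chain; 494, 57.7 and 122.5 against 22.8, 5.94 and 13.1 CPM; -4.05 ± 0.32, adjusted p = 0.0174). The Notch-like ligand gene *Dlk1* was at 57.3, 115 and 35.6 against 1.43, 0 and 2.62 CPM (-5.46 ± 0.56, adjusted p = 0.0271), and *Clec3b*, *Tmsb4x*, *Ifi27l2a* and *Mest* were higher too. Of 8 mural genes 2 were testable here, and *Acta2* was called and *Tagln* was not (-3.39 ± 1.06, adjusted p = 0.433). Over all cells of the *Thy1*+ class, none of 8 mural genes passed between cycling and non-cycling cells, and 3 of 5 testable against matched cells rose. These calls are few and move with the settings: without Tom+ replicate 2, 0 genes passed, without the library block 0, and without the cells with the highest doublet scores 1.

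Cycling cells of the 2 lineages were compared directly as Tom+ (4 libraries) against Tom-GFP+ (2 libraries, 51 and 5 cells). Of 7919 genes, 2 were higher (0.0253%) and 10 lower (0.126%) in Tom+ cycling cells, 0.152% in all. One of them was *tdTom*, the sorted reporter, at 252, 378, 386 and 339 CPM against 10.8 and 0. The other was *Barx1*, a homeobox transcription factor gene, at 43.3, 74.8, 88.6 and 101 CPM against 6.07 and 0 (3.62 ± 0.56, adjusted p = 0.0483). The lineages' libraries did not overlap for these genes, but the test picked them for their separation, so this adds no support. These calls moved with single libraries: 5 genes passed without Tom+ replicate 2, 22 without Tom-GFP+ replicate 2, and 8 without Tom-GFP+ replicate 1, of which 2 were among the 12. With 1 Tom-GFP+ library left, that library is assumed to vary like the Tom+ ones.

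Higher in Tom-GFP+ cycling cells were the interferon-responsive gene *Ifi27l2a* (276 and 656 CPM against 24.2, 24.7, 9.49 and 18.3; -4.39 ± 0.39, adjusted p = 0.00229), *Plac8* (108 and 50.4 against 2.56, 5.95, 4.75 and 0; -4.68 ± 0.46, adjusted p = 0.00322) and follistatin (*Fst*), an activin antagonist (74.8 and 131 against 11.2, 6.80, 14.2 and 9.17; -3.13 ± 0.34, adjusted p = 0.00693). The others were *Dmkn*, *Efemp1*, *Dennd5b*, *Basp1*, *Ecscr*, *Mgst1* and *Oaf*, at log2 fold changes from -4.23 to -1.62. *Pdgfra* did not pass (140, 159, 109 and 151 against 109 and 101 CPM; 0.36 ± 0.26, adjusted p = 0.969). With the replicate number as a block 45 genes passed. This number is not known to pair mice.

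The change with cycling differed between lineages for 9 of 12431 genes (7 or 0.0563% with the higher log2 fold change in Tom+ and 2 or 0.0161% with the lower, 0.0724% in all). *Inhba*, the activin A subunit gene, was at 189, 193, 184 and 50.4 CPM in cycling and 162, 121, 107 and 54.0 in non-cycling Tom+ cells, but at 173 and 222 in cycling and 29.8 and 22.8 in non-cycling Tom-GFP+ cells (difference of log2 fold changes -2.30 ± 0.29, adjusted p = 0.00288). So the cycling Tom-GFP+ cells lay near 3 of the 4 Tom+ libraries, and the non-cycling Tom-GFP+ cells were below every Tom+ library. The lactate transporter gene *Slc16a3* was the other with the larger rise in Tom-GFP+ cells (-1.65 ± 0.28, adjusted p = 0.025). *Sfrp4* (2.77 ± 0.38, adjusted p = 0.0044), *Pcolce2* (2.59 ± 0.39, adjusted p = 0.0107) and *Gsn* (1.96 ± 0.32, adjusted p = 0.0214) were lower in cycling cells in all 6 libraries, and by more in the Tom-GFP+ ones. None of the 9 calls held under every alternative. Against matched cells 0 of the 9 passed, and the 2 genes called there were others. Without Tom-GFP+ replicate 1, which left 1 library on that side, 33 genes passed and 2 of the 9 were among them.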

How the data were processed

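Sorted knee cells were profiled as 10x 5′ libraries, 6 from injured and 3 from uninjured knees. The authors deposited UMI counts per gene and cell, made with Cell Ranger on GRCm38.p6 (submitters' processing notes). The newer file headers name version 3.0.2, and for the older format the version is not given in the sources used here. Barcodes needed 500 genes, 1000 UMIs and a mitochondrial share of no more than 10% (3503 of 3870 injured barcodes passed, and 3164 under limits of 1000 genes and 5%). Cells were chosen by the rule of the opening, and the members and gene lists were chosen with earlier results of these data known. Doublets were scored with Scrublet in scanpy 1.11.5 and none removed.

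UMI counts were summed per library and kind of cell (at least 10 cells within a class) and fitted with edgeR 4.0.16 (TMM, filterByExpr, quasi-likelihood, library block except between lineages) in R 4.3.3, at a false discovery rate of 0.05. Scripts were tested on simulated data. DESeq2 1.42.0 was an alternative. The matched comparison took, for each cycling cell, the unused non-cycling cell of the same library nearest in UMI total. Only the comparisons within a class also matched the class. Shares used cells thinned to 5000 UMIs, exact permutation tests computed with numpy 2.4.6, and binomial intervals from scipy 1.17.1. Named genes were the reporters, the rule genes, members of each list (largest and most abundant) and, outside 471 cell cycle genes, the 10 largest rises and falls with at least 50 CPM in 1 arm and 1 direction in every library. *Ncl*, *Scx* and the other genes named beyond this rule were chosen after their values were seen, and 1 gene that the rule names is not reported here. Positions are from GENCODE on GRCm38. The study gives the replicates of a lineage as separate mice, with the Tom-GFP+ mice matched to Tom+ ones, and p-values measure the spread between libraries. Reads of overlapping genes and near-identical copies are uncertain.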

Additional observations from a re-analysis of the deposited data

Results flagged for a closer look

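Of 83 groups of 4 or 6 libraries examined, 12 had a library far from the others. The rule's rate of about 1 in 20 by chance holds for normal values of equal spread. The libraries gave from 5 to 163 cycling cells, so 12 is not shown to exceed chance. In cycling cells of Tom+ replicate 4 the chondrocyte list summed to 12119 CPM (next library 712 CPM), *Apod* was at 100.8 CPM (next 40.4), *Gm2564* at 36.7 CPM (next 10.1), *Cytl1* at 9.17 CPM and *Car3* at 4.58 CPM. In the 5 cycling cells of Tom-GFP+ replicate 2 the red blood cell list summed to 2694 CPM (next 3.16) and the universal fibroblast list to 1302 CPM (next 513). In Tom+ replicate 2 *Ibsp* was at 161.5 CPM (next 13.8) and *Myoc* at 11.9 CPM, and in Tom+ replicate 3 *Apoe* was at 25.3 CPM. Among cycling *Prg4*+*Thy1*- cells, *Cxcl3* was at 1114 CPM and *Dnajc9* at 110 CPM (109.9) in Tom-GFP+ replicate 1.

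The change with cycling differed between lineages, by edgeR's interaction test, for 9 genes. The differences of log2 fold changes, Tom+ minus Tom-GFP+, were -2.30 for *Inhba* (adjusted p = 0.00288), -1.65 for *Slc16a3* (adjusted p = 0.0250), 2.77 for *Sfrp4* (adjusted p = 0.0044), 2.59 for *Pcolce2* (adjusted p = 0.0107), 1.96 for *Gsn* (adjusted p = 0.0214), 2.03 for *Ltbp4* (adjusted p = 0.0250), 2.37 for *F3* (adjusted p = 0.0243), 8.85 for *Cnmd* (adjusted p = 0.0300) and 9.09 for *Dqx1* (adjusted p = 0.0111). For *Cnmd* the cycling cells of Tom+ replicate 4 alone held 825 CPM, and for *Dqx1* those of Tom+ replicate 3 held 350 CPM.

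Cells with a *Ptprc*, *Tyrobp* or *Pecam1* UMI were outside every comparison. Of 154 such cells in injured knees, 20 (12.99%) held at least 2 of the 5 rule genes, against 1 of 19 in uninjured knees.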

How the results depend on the processing

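The comparison between lineages rests on 4 against 2 libraries and the class comparisons on 3 or 4 libraries, some with few cycling cells. Alternatives with at least 5 or 10 cells in a sum, and other *Prg4* thresholds in the interaction test, were chosen after seeing the data. Against cells matched on UMI totals, calls fell from 3008 to 1225 over all cells, from 1562 to 673 in *Prg4*+*Thy1*- cells, from 755 to 259 in *Thy1*+ cells and from 9 to 2 for the lineage difference of the cycling change, where 0 of the 9 were shared. Fewer cells enter the matched sums, and over all cells the classes were not held fixed. DESeq2 called 950 genes in *Prg4*+*Thy1*- cells, 463 in *Thy1*+ cells, 20 for the class interaction, 50 between cycling cells of both classes and 19 between cycling cells of both lineages. With no filter on low counts these counts were 1170 in *Thy1*+ cells, 176, 341 and 246, and 122 for the lineage difference. With at least 3 of the 5 genes, 2 genes passed for the class interaction, 45 between classes, 7 between lineages and 31 for the lineage difference. Without the cells of highest doublet score 1 passed for the class interaction and 1 between classes. At 10 *Prg4* UMIs the class interaction gave 2, and at 2 UMIs *Thy1*+ cells gave 334 calls.

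Without the replicate block (the library) 676 genes passed in *Prg4*+*Thy1*- cells, 348 in *Thy1*+ cells, 0 between classes and 0 for the lineage difference. With the replicate number as a block between lineages, 45 passed in place of 12. Same-numbered Tom+ and Tom-GFP+ libraries correlated at 0.0815 in their deviations over 9220 genes. This is a single check since both pairs mirror each other, and Tom-GFP+ replicate 2 rests on 5 cycling cells. It cannot decide whether the number pairs libraries. Which libraries share a mouse is not given, so the number was not taken to pair them.

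Leaving out 1 library at a time gave 1899 to 3156 calls over all cells (lowest without Tom+ replicate 1), 864 to 1440 in *Prg4*+*Thy1*- cells (lowest without Tom+ replicate 1), 354 to 1018 in *Thy1*+ cells (lowest without Tom-GFP+ replicate 1), 0 to 4 for the class interaction, 0 to 7 between classes, 5 to 22 between lineages and 11 to 33 for the lineage difference. The *Prg4*+*Thy1*- share difference was 9.23 to 14.1 points and the *Thy1*+ one -7.65 to -4.82 points, where 5 pairs cannot go below p = 0.0625 in the exact test. The lineage difference in the share of cycling cells ranged from -1.25 to 4.46 points, below 0 without Tom-GFP+ replicate 2 (-1.25) and without Tom+ replicate 1 (-0.685).

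The *Prg4*+*Thy1*- share difference was 11.8 points at 2500 UMIs, 10.4 without thinning, 12.4 at a threshold of 2 *Prg4* UMIs and 9.10 at 10. The *Thy1*+ difference was -3.70, -8.27 and -2.10 points at 2500 UMIs, without thinning and at 2 *Prg4* UMIs, and -5.60 under the stricter cell filter, and its call was lost in each. *Col2a1* turned to 1.03 without the replicate block, *Ltbp4* to -0.44 for the lineage difference in matched cells, and *Pi16* in *Prg4*+*Thy1*- cells to 0.067 at 10 *Prg4* UMIs, and the cause was not tested. Of named genes called, 48 of 79 kept their call under every alternative over all cells, 33 of 68 in *Prg4*+*Thy1*- cells, 26 of 53 in *Thy1*+ cells, 0 of 18 between classes, 2 of 10 between lineages and 0 of 8 for the lineage difference.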
